A study of Mus musculus with 214 samples.

Results

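Cells watch their cytosol for DNA and RNA that should not be there. The 10 genes described here encode this watch in the mouse, and they were chosen by symbol. They are Zbp1, Tmem173, Cgas, Ddx58, Ifih1, Dhx58, Eif2ak2, Trex1, Samhd1 and Adar, which is 10 of the 19900 genes measured in livers of at least 1 genotype, and all 10 were found in both genotypes. The DNA sensor cGAS (Cgas) makes a cyclic dinucleotide that activates STING (Tmem173), and the helicases RIG-I (Ddx58) and MDA5 (Ifih1) bind double-stranded RNA and signal through the adaptor MAVS. Both routes lead to the kinase TBK1, to the factors IRF3 and IRF7 and to type I interferon. ZBP1 (Zbp1) binds Z-form nucleic acids and can start necroptosis, LGP2 (Dhx58) tunes the helicases, and PKR (Eif2ak2) halts translation when it binds double-stranded RNA. TREX1 (Trex1), SAMHD1 (Samhd1) and ADAR1 (Adar) degrade cytosolic DNA, hydrolyse deoxynucleotides and edit double-stranded RNA, and their loss leads to interferonopathy. Most of these genes are themselves induced by interferon.

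The measurements were 3′ digital gene expression libraries of whole liver, with values for 213 of 214 labelled mice (117 WT and 96 Mgmt-/-). N-nitrosodimethylamine (NDMA), a methylating liver carcinogen, was injected at 3.5 mg/kg on postnatal day 8 and at 7 mg/kg on postnatal day 15. Controls had saline. Mgmt-/- mice lack the methyltransferase that removes methyl groups from the O6 position of guanine, and all mice of both genotypes, saline controls included, carried the RaDR+/+ and GPT+/+ reporter alleles on a C57BL/6 background. Livers were taken on day 1, day 2 or day 5, in week 10 or in month 10 after the second dose. In that order, 26, 8, 8, 8 and 13 NDMA-exposed WT mice were compared with 21, 8, 7, 8 and 10 saline mice, and 12, 8, 8, 8 and 13 NDMA-exposed Mgmt-/- mice with 12, 7, 6, 8 and 12 saline mice. Levels are normalized counts, that is, reads per gene divided by a size factor per library, and since the genotypes were normalized separately their levels are not on 1 scale. Total reads ran from 150038 to 4791649 in WT libraries and from 713584 to 7740710 in Mgmt-/- libraries.

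Some libraries stood apart. A pair of Mgmt-/- saline libraries of day 5 held the kidney transcript Kap at 6147 and 7562 normalized counts, against at most 13.9 in the other Mgmt-/- libraries, and these were left out by the rule that defined the comparison. In the libraries kept, the summed kidney markers reached at most 21.5 normalized counts, whereas the summed hepatocyte markers (Alb, Apoa1, Ttr, Serpina1c and Fgb) were at least 79369. In WT livers, 4 NDMA libraries had fewer than 300000 reads, and 2 NDMA libraries of day 1 went against their labelled sex. The WT saline library D209074 of day 1 held Zbp1 at 409 normalized counts where the other 20 in its group ran from 29.3 to 125, and Samhd1 at 135 where the others ran from 11.9 to 44.4. Its Alb was 25257, against 46985 or more in the others. The Mgmt-/- saline library D209090 of day 1 and the WT saline library D215004 of day 2 were likewise the highest of their groups for both genes, with Zbp1 at 186 and 178. The T cell transcript Cd3d was also the highest of its group in all 3 libraries, at 27.1, 16.7 and 15.5 against at most 16.3, 10.1 and 8.67 in the others. Gzma, of NK cells, was the highest in D209090 (57.6 against at most 49.0) and D215004 (61.8 against at most 18.7), and Alb was the lowest in all 3. S100a8, of monocytes and neutrophils, was not the highest of its group in any of them (196, 725 and 116 against up to 428, 1418 and 213). The interferon-induced Ifit1 was the highest in D215004 (65.7 against at most 34.3) but not in D209074 or D209090. The part of these cells, or of interferon, in the Zbp1 and Samhd1 levels was not tested. All 3 were kept.

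Across the 5 times, NDMA-exposed Mgmt-/- livers had higher transcript levels of most of these genes early, and of 3 of 8 in month 10. A gene was called at a Benjamini-Hochberg adjusted p under 0.05 (limma, adjusted over all genes tested) with an absolute log2 fold change over 0.58, on the log2(normalized count + 1) scale. In Mgmt-/- livers 5 of 9 tested members were called higher on day 1, 8 of 9 on day 2, 7 of 9 on day 5, 1 of 9 in week 10 and 3 of 8 in month 10. Of all genes tested, 9.06%, 12.4%, 11.1%, 7.27% and 4.75% were called higher in the same comparisons. The 1 of 9 in week 10 is near its share. In WT livers 4 of 9 were called higher on day 1, 2 of 9 on day 2 and 2 of 9 on day 5, against 5.01%, 3.33% and 2.22% of all genes. In week 10 and month 10 none of the 8 members tested by limma was called in WT livers, with 1 under an unadjusted p of 0.05 at each time. By edgeR and by DESeq2 none was called either, with 0 of 7 in week 10 and 2 of 8 in month 10 under an unadjusted p of 0.05. Of all genes, 0.0249% and 0% were called higher there. No member was called lower in any of the 10 comparisons. Of all genes, 4.19%, 2.91%, 1.39%, 0% and 0% were called lower in WT livers from day 1 to month 10, and 8.64%, 7.5%, 6.71%, 3.88% and 2.99% in Mgmt-/- livers. Every NDMA library lay above every saline library for Zbp1 on day 2 and for Zbp1, Trex1 and Samhd1 on day 5, all in Mgmt-/- livers, where 6.19% and 6% of all genes tested were so separated. No member was so separated in the other comparisons, in which this held for 0%, 0.373%, 0.22%, 0% and 0% of all genes in WT livers from day 1 to month 10, and for 0.776%, 2.4% and 0.129% in Mgmt-/- livers of day 1, week 10 and month 10. The median log2 fold change of the members tested was 0.66, 0.97, 0.76, 0.48 and 0.60 in Mgmt-/- livers from day 1 to month 10, and that of all genes tested lay between -0.01 and 0.04. In WT livers it was 0.58, 0.31, 0.30, -0.04 and 0.01, with all genes between -0.08 and -0.03.

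**Figure D1:**
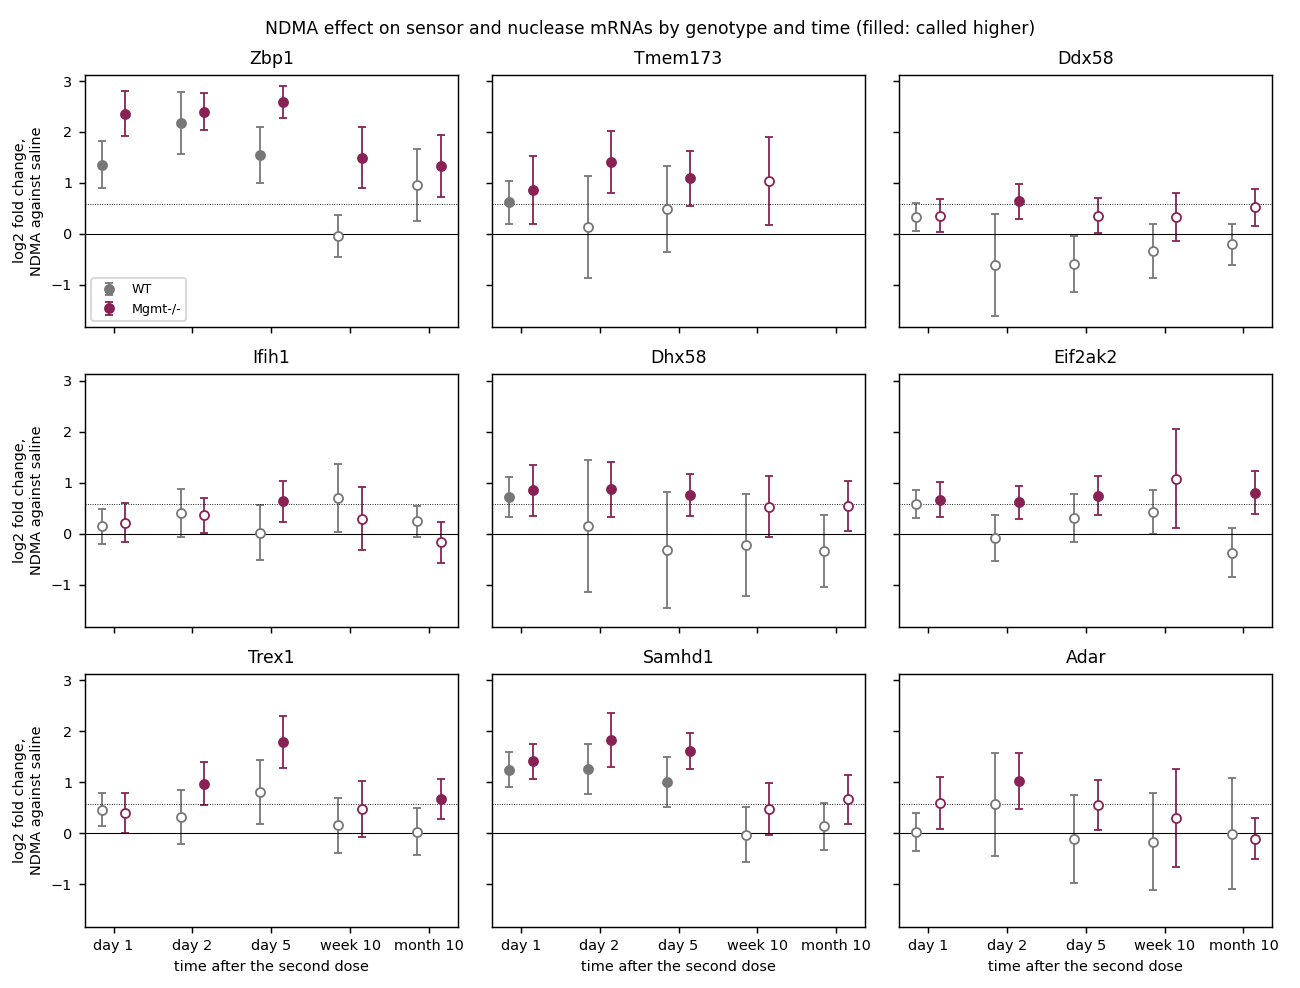
Log2 fold change of NDMA against saline (y axis, log2(normalized count + 1) scale) with 95% confidence intervals from limma, for 9 members at 5 times (x axis) in WT (gray) and Mgmt-/- (purple) livers. Filled points were called higher, the dotted line marks 0.58, and a missing point was not tested. Zbp1 was called higher at all 5 times in Mgmt-/- livers, at 1.33 or more, and on days 1, 2 and 5 in WT livers.

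Of the DNA sensing genes, Zbp1 had the largest log2 fold changes. On day 1, Zbp1 in saline Mgmt-/- livers ran from 27.7 to 186 normalized counts (median 53.4), and in NDMA-exposed Mgmt-/- livers from 157 to 421 (median 321). All but 1 of the 12 NDMA libraries lay above the highest saline library. On day 2 the saline range was 44.7 to 69.7 (median 60.4) and the NDMA range 182 to 499 (median 321), and on day 5 they were 42.7 to 81.8 (median 51.8) and 267 to 427 (median 333). The groups did not overlap on days 2 and 5. The log2 fold changes were 2.36 ± 0.21 (SE), 2.40 ± 0.18 and 2.58 ± 0.15 on days 1, 2 and 5, with limma adjusted p of 1.01e-09, 4.84e-10 and 8.06e-12. Within the batches of day 1 the Zbp1 difference was 2.73 (8 and 8 livers, 191212Eng) and 1.61 (4 and 4, 200803Eng).

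Zbp1 was also called at both late times in Mgmt-/- livers. In week 10 the 8 saline libraries held 10.4, 33.8, 38.1, 43.8, 46.9, 62.2, 64.1 and 86.81 normalized counts and the 8 NDMA libraries 86.81, 87.3, 93.5, 104, 132, 151, 163 and 193. The ranges met at a single pair of libraries, and the log2 fold change was 1.50 ± 0.29 (SE) with a limma adjusted p of 0.000816. In month 10 saline livers ran from 5.83 to 31.0 (median 14.8) and NDMA-exposed livers from 14.5 to 112 (median 33.3). There the groups overlapped, 7 of 13 NDMA libraries were above every saline library, and the log2 fold change was 1.33 ± 0.30 (SE) with a limma adjusted p of 0.00349. By sex, the month 10 medians were 9.56 in 5 saline males and 52.8 in 6 NDMA males, and 20.6 in 7 saline females and 30.0 in 7 NDMA females. The effect was 1.89 larger in males on the log2 scale, which missed the threshold (limma adjusted p = 0.0710).

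In WT livers Zbp1 was called on days 1, 2 and 5 and at neither late time. Day 1 values ran from 29.3 to 409 (median 56.1) after saline and from 39.6 to 402 (median 193) after NDMA, and no NDMA library exceeded the saline library D209074. The log2 fold change was 1.36 ± 0.23 (SE, limma adjusted p = 1.32e-05), and 1.50 without that library, an alternative chosen after the data were seen. Within batches it was 1.52 (8 NDMA and 8 saline livers, batch 191212Eng), 0.31 (6 and 4, batch 200803Eng, which held D209074) and 1.63 (12 and 9, batch 210901Eng). On day 2 saline livers ran from 24.9 to 178 (median 44.2) and NDMA-exposed livers from 158 to 329 (median 205), and 7 of 8 lay above every saline library. This log2 fold change was 2.18 ± 0.29 (SE), at a limma adjusted p of 0.000226. On day 5 the ranges were 14.7 to 97.2 (median 48.7) and 69.4 to 175 (median 148), and the log2 fold change reached 1.54 ± 0.26 (SE, limma adjusted p = 0.00346). In WT livers of days 2 and 5 each batch held 1 sex, so batch and sex cannot be told apart, and Zbp1 was higher after NDMA in males (2.54 and 2.14) and in females (1.82 and 1.03). By week 10 the WT ranges were 29.8 to 88.7 after saline and 30.3 to 89.0 after NDMA, with a log2 fold change of -0.05 (95% confidence interval from -0.46 to 0.36). In month 10 the log2 fold change was 0.96 (95% confidence interval from 0.26 to 1.66), with an adjusted p of 0.554 (limma). Within the month 10 batches it was 1.96 in males (4 NDMA and 3 saline livers, batch 200710Eng, all 4 above every saline liver), 0.33 in females (4 and 4, batch 200724Eng) and 0.58 in batch 200803Eng (5 and 3).

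Tmem173, which encodes the adaptor STING, had low counts but was called at 3 times in Mgmt-/- livers. Saline Mgmt-/- livers held 1.09 to 10.1 normalized counts on day 1 (median 5.45), 4.04 to 14.9 on day 2 (median 6.36) and 5.47 to 17.3 on day 5 (median 11.6). NDMA-exposed Mgmt-/- livers held 1.56 to 28.2 (median 11.6), 10.2 to 39.4 (median 21.4) and 13.7 to 33.7 (median 28.0). The groups overlapped at each of these times, with 7 of 12, 7 of 8 and 6 of 8 NDMA libraries above every saline library. Log2 fold changes were 0.86 ± 0.33, 1.41 ± 0.29 and 1.09 ± 0.26 (SE), and the limma adjusted p was 0.0493, 0.000578 and 0.00285. In WT livers Tmem173 was called on day 1 alone of the 3 times tested, at 0.62 ± 0.21 (SE, limma adjusted p = 0.0309), and its mean was under 5 in WT livers of both late times and in Mgmt-/- livers of month 10. In Mgmt-/- livers of month 10 the 13 NDMA libraries nevertheless ran from 1.39 to 14.5 and the 12 saline libraries from 0 to 4.17, and with no filter on low values Tmem173 was called there (limma adjusted p = 0.0111). The day 1 calls were lost with no covariates (limma adjusted p of 0.114 in Mgmt-/- and 0.0671 in WT livers) and with no filter on low values (limma adjusted p of 0.0774 and 0.0530). That of Mgmt-/- livers was also lost with a pseudocount of 0.5 (limma adjusted p = 0.0610), and that of WT livers with a pseudocount of 5, at 0.40. The day 1 direction turned in 1 batch of each genotype. For Mgmt-/- livers the log2 difference was 1.45 in batch 191212Eng (8 and 8 livers) and -0.31 in batch 200803Eng (4 and 4), and in WT livers it was 0.76 (191212Eng), -0.26 (200803Eng) and 0.92 (210901Eng).

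Cgas, the DNA sensor upstream of STING, was at the edge of detection and failed the filter (a mean of at least 5) in all 10 comparisons. Its highest group mean was 2.74 normalized counts, and 34 reads in 21 WT saline libraries against 114 reads in 26 WT NDMA libraries of day 1 were the largest numbers behind it. In Mgmt-/- livers of day 5 the 6 saline libraries ran from 0 to 1.64 and the 8 NDMA libraries from 0 to 6.37, with 4 and 29 reads in all. With no filter its log2 fold change there was 1.12 (limma adjusted p = 0.106), and on day 1 in WT livers it was 0.73 (limma adjusted p = 0.0645). The unadjusted p was 0.0192 and 0.00764, and neither passed after adjustment. In the other 8 comparisons the unadjusted p was over 0.05.

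**Figure D2:**
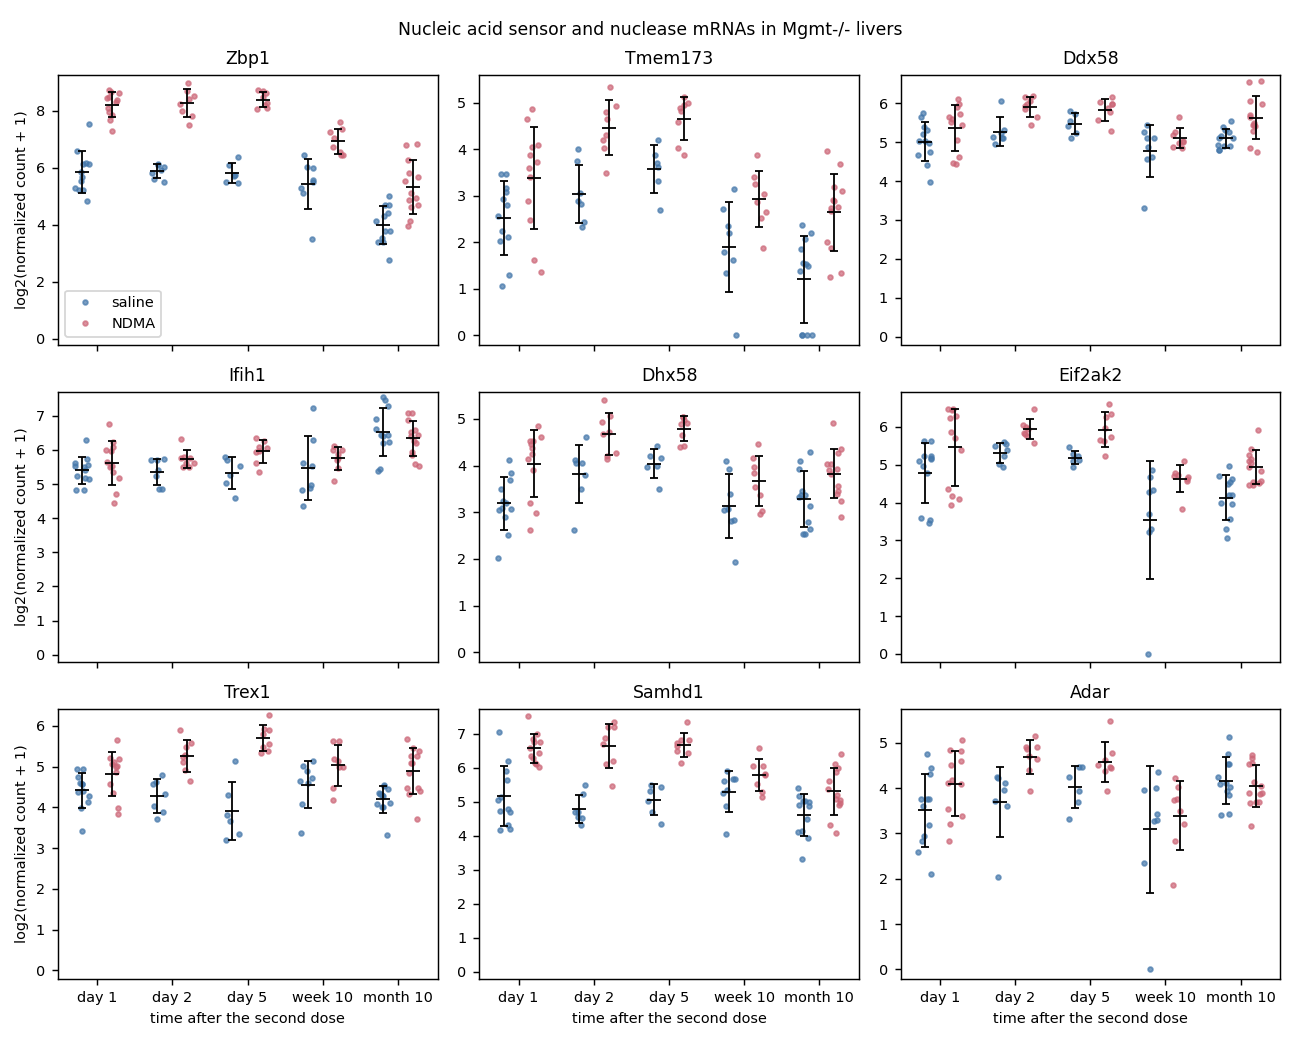
Each point is 1 Mgmt-/- liver, as log2(normalized count + 1) on the y axis by time after the second dose on the x axis, for saline (blue) and NDMA (red), with bars for the mean and SD. Zbp1 did not overlap between groups on days 2 and 5, and Trex1 and Samhd1 did not on day 5, whereas Ifih1 overlapped at every time.

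Promoter stretches are shown for the members whose promoters held the letters of the interferon-stimulated response element, since most members are known to be interferon-inducible. RefSeq promoter windows of GRCm38.p6, from 250 bases before to 50 bases after a gene start, were matched for 7 of the 10 members, in 10 windows. No window was used for Zbp1, Tmem173 or Dhx58, so their promoters were not searched and nothing is known here of their matches. They were searched for the interferon-stimulated response element, spelled GAAA, 2 bases of any kind and GAAA, on either strand. It was found in 3 windows, 1 each of Ddx58, Ifih1 and Eif2ak2, and in 3.44% of all 32851 windows. A second element, the gamma-activated sequence (TTC, 3 bases of any kind and GAA, which reads the same on both strands), was found in 1 window each of Eif2ak2, Samhd1 and Adar and in 8.3% of all windows. The 30 bases around each match of the first element follow, in the direction of transcription, with the match in capitals. All 3 genes lie on the minus strand, and the stretches lie at chr4:40239804-40239833, chr2:62646206-62646235 and chr17:78882535-78882564.
Ddx58: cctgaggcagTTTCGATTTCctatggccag
Ifih1: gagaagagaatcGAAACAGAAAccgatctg
Eif2ak2: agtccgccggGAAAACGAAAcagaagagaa
In Ddx58 the match is on the reverse strand. In NDMA-exposed Mgmt-/- livers of day 2 their log2 fold changes were 0.64, 0.36 and 0.62, and Ifih1 was not called. A match describes letters and is not a measured binding site. In the GENCODE vM21 annotation of GRCm38 the gene of Zbp1 lies at chr2:173206612-173218923, that of Samhd1 at chr2:157097533-157135265 and that of Trex1 at chr9:109057933-109059734, all on the minus strand.

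Of the RNA sensing genes, Dhx58, the regulator LGP2, was called on days 1, 2 and 5 in Mgmt-/- livers. Its values ran from 3.06 to 16.4 normalized counts (median 7.87) in saline and from 5.16 to 27.9 (median 19.0) in NDMA-exposed Mgmt-/- livers on day 1, from 5.14 to 23.5 (median 15.6) and 16.7 to 41.6 (median 25.1) on day 2, and from 10.4 to 20.4 (median 15.8) and 20.2 to 32.0 (median 28.9) on day 5. The groups overlapped each time, and 8 of 12, 5 of 8 and 6 of 8 NDMA libraries were above every saline library. Its log2 fold change was 0.85 ± 0.25, 0.87 ± 0.26 and 0.76 ± 0.20 (SE), with limma adjusted p of 0.00959, 0.0148 and 0.00683. Without the saline library D389041 the day 2 value was 0.64 and was not called (limma adjusted p = 0.0534). In WT livers Dhx58 was called on day 1 at 0.72 ± 0.20 (SE, limma adjusted p = 0.00527), and at the other 4 times its log2 fold change was between -0.34 and 0.14. This call was lost with a pseudocount of 5, at 0.47, and in batch 191212Eng alone, at 0.70 (limma adjusted p = 0.142). On days 2 and 5 the WT batches, each of 1 sex, went opposite ways for Dhx58. The log2 difference was 1.02 and 0.76 in males and -0.74 and -1.25 in females. An antisense gene, Dhx58os, overlaps it, and whether counting used strand is not given in the sources used here.

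Eif2ak2, the kinase PKR, was called at 4 of 5 times in Mgmt-/- livers. Day 1 values ran from 10.1 to 48.9 normalized counts (median 33.9) after saline and from 14.4 to 88.0 (median 54.4) after NDMA. Day 2 values ran from 29.8 to 47.3 (median 40.7) and from 47.0 to 87.5 (median 58.4), and day 5 values from 29.6 to 43.0 (median 35.3) and from 36.5 to 96.3 (median 57.0). On days 2 and 5, 7 of 8 NDMA libraries were above every saline library. Its log2 fold change was 0.66, 0.62 and 0.74 on days 1, 2 and 5 (SE 0.17, 0.16 and 0.18, limma adjusted p 0.00310, 0.00413 and 0.00424). The day 1 call was lost with no covariates (limma adjusted p = 0.211). The day 2 call was lost without any 1 of D389041, D389047 or D389089 (log2 fold changes of 0.54, 0.57 and 0.55), with a pseudocount of 5 (0.57) and by DESeq2 (0.57). Within batches the day 1 difference was 0.84 (8 and 8 livers, batch 191212Eng) and 0.29 (4 and 4, batch 200803Eng). In month 10 saline livers ran from 7.39 to 30.2 (median 17.5) and NDMA-exposed livers from 21.0 to 59.4 (median 29.5). All 13 NDMA libraries were above the saline median and 6 above every saline library, and the log2 fold change there was 0.80 ± 0.21 (SE), at a limma adjusted p of 0.0110. In week 10 the log2 fold change was 1.08 ± 0.47 (SE) and was not called (limma adjusted p = 0.156), with 1 saline library at 0. In WT livers of day 1, Eif2ak2 ran from 6.21 to 40.5 (median 16.9) after saline and from 7.96 to 61.4 (median 23.0) after NDMA. Its log2 fold change there was 0.577 ± 0.14 (SE, limma adjusted p = 0.00152), just under the fold threshold. It was called in 7 of 12 alternatives, among them edgeR (0.64) and DESeq2 (0.65). With no covariates it was 0.47 and was not called (limma adjusted p = 0.168). At the other times in WT livers it was between -0.38 and 0.42 with no call.

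Ddx58 and Ifih1, the helicases RIG-I and MDA5, were each called once. Ddx58 was called on day 2 in Mgmt-/- livers, where saline livers held 29.8 to 66.2 normalized counts (median 34.1) and NDMA-exposed livers 42.5 to 71.8 (median 61.2). The groups overlapped, since the saline library D389006 was above 6 of 8 NDMA libraries, and the log2 fold change was 0.64 ± 0.17 (SE, limma adjusted p = 0.00620). It was 0.57 both without the saline library D389041 and by DESeq2, under the fold threshold. At the other 4 times in Mgmt-/- livers the Ddx58 log2 fold change was between 0.32 and 0.52 with no call by limma, though edgeR (0.62, adjusted p = 0.0258) and DESeq2 (0.64, adjusted p = 0.0133) called it in month 10, and in WT livers it was 0.33 on day 1 and between -0.61 and -0.20 afterwards, with no call. Ifih1 was called on day 5 in Mgmt-/- livers, with saline values of 23.0 to 54.2 (median 41.6), NDMA values of 40.0 to 81.0 (median 63.8) and 6 of 8 NDMA libraries above every saline library. Its log2 fold change there was 0.63 ± 0.19 (SE, limma adjusted p = 0.0193), and in the other 9 comparisons it was between -0.17 and 0.70 with no call. The call was lost by edgeR (0.57), by DESeq2 (0.58) and without any 1 of D389054, D389042 or D389048 (0.58, 0.56 and 0.48). In WT livers of day 1, Ddx58 and Ifih1 were both called with batch 191212Eng analysed by itself. By batch there (191212Eng, 200803Eng and 210901Eng), the log2 difference was 0.79, -0.45 and 0.36 for Ddx58 and 0.64, 0.03 and -0.24 for Ifih1.

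Of the enzymes Samhd1, Trex1 and Adar, the highest single log2 fold changes were those of Samhd1 (1.83, day 2) and Trex1 (1.79, day 5) in Mgmt-/- livers. Adar was above Trex1 there on days 1 and 2 (0.59 and 1.02 against 0.40 and 0.97). Samhd1, the deoxynucleotide triphosphohydrolase, ran from 17.0 to 132 normalized counts (median 29.5) in saline and from 64.5 to 185 (median 90.5) in NDMA-exposed Mgmt-/- livers on day 1. The corresponding values were 19.1 to 44.2 (median 24.9) and 43.2 to 161 (median 110) on day 2, and 19.3 to 44.3 (median 35.4) and 69.8 to 161 (median 102) on day 5. All NDMA libraries were above every saline library on day 5, and 7 of 8 were on day 2, while on day 1 the saline library D209090 was above 11 of the 12. Log2 fold changes were 1.41 ± 0.17, 1.83 ± 0.25 and 1.62 ± 0.17 (SE), with limma adjusted p of 3.62e-08, 1.44e-05 and 1.02e-07. Within the batches of day 1 the Samhd1 difference was 1.72 (191212Eng, 8 and 8 livers) and 0.79 (200803Eng, 4 and 4, with 1 NDMA library above every saline library). In week 10 and month 10 the log2 fold change was 0.48 and 0.67, and neither was called (limma adjusted p = 0.241 and 0.0684). In month 10 Samhd1 was called by edgeR (0.71, adjusted p = 0.0473) and by DESeq2 (0.74, adjusted p = 0.0286).

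Samhd1 was also called on days 1, 2 and 5 in WT livers. Day 1 values ran from 11.9 to 135 (median 22.2) after saline and from 21.7 to 144 (median 60.1) after NDMA, with 25 of 26 NDMA libraries above the saline median. On day 2 they ran from 10.9 to 54.1 (median 20.5) and from 39.7 to 87.4 (median 47.3), and on day 5 from 8.95 to 36.9 (median 21.5) and from 17.3 to 82.0 (median 33.2), so the groups overlapped at all 3 times. Its log2 fold change was 1.25 ± 0.17, 1.27 ± 0.24 and 1.00 ± 0.24 (SE), with limma adjusted p of 1.80e-07, 0.00253 and 0.0213. The day 5 call was lost without the NDMA library D202013 or the saline library D202009 (limma adjusted p = 0.0508 and 0.0729), and with no covariates (limma adjusted p = 0.183). Within the batches of day 1 it was 1.39 (191212Eng), 0.42 (200803Eng) and 1.49 (210901Eng). In week 10 and month 10 it was -0.03 and 0.14 in WT livers, with 95% confidence intervals from -0.56 to 0.51 and from -0.32 to 0.60.

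Trex1, the main exonuclease of cytosolic DNA, was called on days 2 and 5 and in month 10 in Mgmt-/- livers. On day 1 it was at 0.40 on the log2 scale and was not called (limma adjusted p = 0.129), but it was with libraries scaled to equal totals, at 0.59. On day 2 saline livers ran from 12.1 to 27.0 normalized counts (median 19.1) and NDMA-exposed livers from 24.2 to 58.6 (median 37.2), and on day 5 from 8.20 to 34.1 (median 12.5) and from 39.1 to 76.2 (median 50.4). The groups overlapped on day 2 and not on day 5, and the log2 fold change was 0.97 ± 0.21 and 1.79 ± 0.25 (SE, limma adjusted p = 0.000725 and 5.99e-06). In month 10 saline livers ran from 9.05 to 22.2 (median 18.6) and NDMA-exposed livers from 12.1 to 50.3 (median 33.0), and 8 of 13 lay above every saline library. The log2 difference there was 0.68 ± 0.19 (SE), at a limma adjusted p of 0.0224. In WT livers Trex1 was not called, and its largest log2 fold change was 0.82 on day 5 (limma adjusted p = 0.139). On day 1 it passed the adjusted p there but not the fold threshold, at 0.46 (limma adjusted p = 0.0278), and by batch it was 0.75 (191212Eng, where it was called with that batch analysed by itself), -0.55 (200803Eng) and 0.74 (210901Eng). Trex1 shares its 3′ end with Atrip on the same strand, so reads of these genes could not be told apart here.

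Adar, the RNA editing enzyme ADAR1, was called once. On day 2 saline Mgmt-/- livers ran from 3.09 to 17.9 normalized counts (median 14.6) and NDMA-exposed ones from 14.4 to 34.5 (median 26.7), with 7 of 8 above every saline library. Its log2 fold change was 1.02 ± 0.27 (SE, limma adjusted p = 0.00464), and it was 0.59, 0.56, 0.31 and -0.11 on day 1, day 5, week 10 and month 10. On day 1 Adar was called at 0.78 without the saline library D209090 or with equal totals, and at 0.73 in batch 191212Eng alone. On day 5 it was called at 0.67 without the NDMA library D389084 and at 0.70 with equal totals. In WT livers the Adar log2 fold change lay between -0.16 and 0.56, with no call. Genes on the opposite strand overlap Adar (Chrnb2), Cgas (Gm8093) and Eif2ak2 (n-R5s29 and Gm26637), and without known strand use their reads cannot be told apart either.

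**Figure D3:**
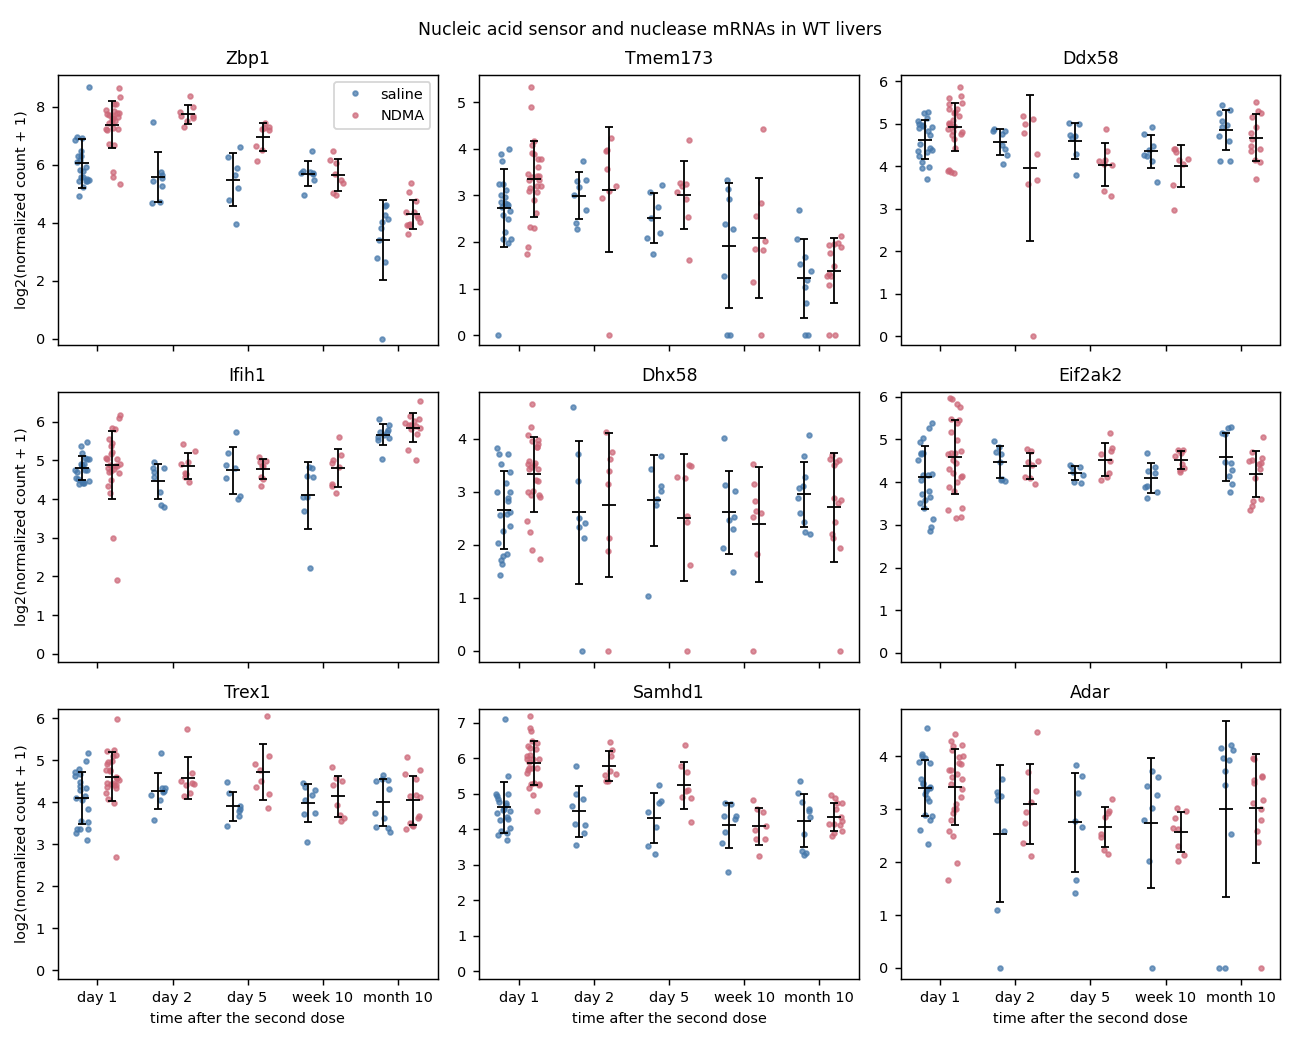
Each point is 1 WT liver, as log2(normalized count + 1) on the y axis by time after the second dose on the x axis, for saline (blue) and NDMA (red), with bars for the mean and SD. Zbp1 and Samhd1 were called higher after NDMA on days 1, 2 and 5, and the saline library at 409 Zbp1 counts stands above the rest of its group on day 1.

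Whether the NDMA effect differed between genotypes was tested as a genotype by treatment term on reads of both genotypes (edgeR quasi-likelihood). The estimate was larger in Mgmt-/- livers for 7, 8, 9, 7 and 7 of the 9, 9, 9, 8 and 8 members tested from day 1 to month 10. Only Zbp1 in week 10 and Eif2ak2 in month 10 passed the adjusted p threshold, where 3.32% and 0.897% of all genes were called larger in Mgmt-/- livers. Zbp1 was 1.57 larger on the log2 scale in Mgmt-/- livers (edgeR adjusted p = 0.00211), and Eif2ak2 was 1.21 larger (edgeR adjusted p = 0.0221). The Eif2ak2 call was lost with no sex or batch terms (edgeR adjusted p = 0.0536). Within batch 200803Eng, the sole batch that held both genotypes in month 10, the Eif2ak2 difference was -0.79 in 5 NDMA and 3 saline WT livers and 0.81 in the Mgmt-/- livers. In the other WT batches it was -0.08 (4 and 3 livers, 200710Eng) and -0.19 (4 and 4, 200724Eng). No batch held both genotypes on day 2, on day 5 or in week 10, so batch and genotype cannot be told apart there, in levels or in these terms. On days 1, 2 and 5 none of the 9 members passed by edgeR or by limma on log2 CPM, with 1, 3 and 6 members at an unadjusted p under 0.05 by edgeR and 0%, 2.48% and 1.27% of all genes called larger in Mgmt-/- livers. Zbp1 on day 5 came nearest, at 1.01 larger (edgeR adjusted p = 0.0562). So for Trex1 on days 2 and 5 and in month 10, and for Tmem173 and Dhx58 on days 2 and 5, a call in Mgmt-/- livers without 1 in WT livers was not shown to be a difference between genotypes. The same holds for Eif2ak2 on days 1, 2 and 5, Ddx58 and Adar on day 2 and Ifih1 on day 5. It also holds for Zbp1 in month 10 (0.93 larger in Mgmt-/- livers, edgeR adjusted p = 0.345).

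The change of the effect with time was tested within each genotype with limma, as the NDMA effect on day 2 minus that in week 10 or month 10. Samhd1 passed in Mgmt-/- livers, with an effect 1.35 ± 0.37 (SE) larger on day 2 than in week 10 (limma adjusted p = 0.0200) and 1.15 ± 0.34 (SE) larger than in month 10 (limma adjusted p = 0.0263). Of all genes, 1.47% and 2.72% were called larger on day 2. With no sex or batch terms both Samhd1 calls were lost (limma adjusted p = 0.0574 and 0.0680). Zbp1 passed in WT livers, with an effect 2.22 ± 0.50 (SE) larger on day 2 than in week 10 (limma adjusted p = 0.00894), where 0.583% of all genes were called larger on day 2. In Mgmt-/- livers the Zbp1 effect was 0.91 and 1.07 larger on day 2 than at the late times, which missed the threshold (limma adjusted p = 0.325 and 0.109). In WT livers no member passed for day 2 minus month 10 by limma or edgeR, with 2 members under an unadjusted p of 0.05 by each and 0.275% of all genes called larger on day 2 by limma. These contrasts share the day 2 livers. In Mgmt-/- mice day 2 and the late times came from different batches, so batch and time cannot be told apart in levels or in these differences of effects. No member passed the sex by treatment term in any comparison by limma or edgeR, and from 0 to 2 members per comparison had an unadjusted p under 0.05 by each tool. By limma, 0.114% and 0.338% of all genes passed it in Mgmt-/- livers of week 10 and month 10, and 0% in the other comparisons. With few mice of each sex per group, this does not show that the sexes responded alike.

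Interferon genes themselves were at or near the limit of detection. Ifnb1, the interferon β gene, had a read in 1 of 45 saline and 1 of 49 NDMA-exposed Mgmt-/- livers, and Ifna13 in 2 and 3. Ifng, the gene of interferon γ, had a read in 6 of 45 saline and 21 of 49 NDMA-exposed Mgmt-/- livers and in 3 of 54 saline and 19 of 63 NDMA-exposed WT livers, at no more than 4.89 normalized counts. Ifnk, an interferon gene of keratinocytes, had a read in 26 of 45 and 32 of 49 Mgmt-/- livers and in 21 of 54 and 30 of 63 WT livers. Of the interferon genes listed, only these had values in Mgmt-/- livers, and only Ifng and Ifnk had values in WT livers. None of them passed the filter in any comparison. Ifna2, Ifna4, Ifna5, Ifnl2, Ifnl3 and Ifne were listed but had no values in either genotype, so they could not be tested.

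Genes next to the sensors in the pathway were followed as lists. Of 14 tested adaptors and kinases (13 in week 10), 3, 5, 4, 1 and 3 were called higher from day 1 to month 10 in Mgmt-/- livers and none lower, with medians of 0.31, 0.44, 0.46, 0.24 and 0.04. For this and the following lists, the share of all genes called higher was 9.06%, 12.4%, 11.1%, 7.27% and 4.75% at these times, and 1 of 13 in week 10 is near that share. Mlkl, which carries out necroptosis downstream of ZBP1 and RIPK3, was called higher at all 5 times. On day 2, in week 10 and in month 10 it had medians of 10.4, 3.97 and 7.85 normalized counts in saline Mgmt-/- livers, and of 37.3, 19.6 and 21.1 in NDMA-exposed ones. On days 2 and 5 and in week 10 the groups did not overlap, as was so for 6.19%, 6% and 2.4% of all genes, and the Mlkl log2 fold change was 1.31, 1.97, 1.85, 2.29 and 1.41 in time order. Irf7, the factor that amplifies interferon transcription, was called on days 1, 2 and 5 and in month 10 at 1.17, 1.38, 1.78 and 0.88. Irf1, another interferon regulatory factor, was called on days 1, 2 and 5 at 0.99, 1.88 and 1.56. In WT livers 5 of 14, 1 of 13, 1 of 13, 0 of 13 and 0 of 14 of these genes were called higher, beside 5.01%, 3.33%, 2.22%, 0.0249% and 0% of all genes, among them Mlkl on days 1 and 5 at 0.94 and 1.24, and Mavs was called lower on day 2 at -0.63.

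Among the other DNA sensors, 2 of 13, 5 of 13, 4 of 12, 3 of 11 and 0 of 10 were called higher in Mgmt-/- livers from day 1 to month 10, against 9.06%, 12.4%, 11.1%, 7.27% and 4.75% of all genes. Ifi204 and Ifi203, members of the interferon-inducible p200 family, were both called on days 1, 2 and 5 and in week 10, and their log2 fold change on day 5 was 1.42 and 1.27. Ifi205, of the same family, was called on days 2 and 5 at 1.47 and 2.76, from low saline counts. Its medians were 2.06 normalized counts after saline and 7.69 after NDMA on day 2. On day 5 saline libraries ran from 0 to 2.47 (median 0) and NDMA libraries from 4.27 to 16.8 (median 7.13). It thus passed the filter on day 5 only through the NDMA libraries, and the size of that fold change rests on saline values near 0. Prkdc, the catalytic subunit of DNA-PK, was called lower on days 1 and 2 at -1.38 and -0.81, and Xrcc6, the Ku70 gene, in month 10 at -0.77, both named after their values were seen. In WT livers 1 of 11 and 1 of 10 of these sensors were called higher on days 1 and 2, beside 5.01% and 3.33% of all genes, and none later.

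Of the other RNA sensors and effectors, 1 of 11, 4 of 10, 4 of 10, 1 of 10 and 2 of 10 were called higher in Mgmt-/- livers and none lower. The counts of day 1 and week 10 are near the 9.06% and 7.27% of all genes called higher. Oasl1, an oligoadenylate synthetase-like gene, was called at all 5 times. Its medians were 7.64, 13.2, 16.4, 14.3 and 17.2 normalized counts in saline and 26.4, 47.5, 78.2, 45.6 and 30.4 in NDMA-exposed Mgmt-/- livers, for log2 fold changes of 1.37, 1.65, 2.20, 1.29 and 0.88. Oasl2 was called on days 2 and 5 and in month 10 at 1.66, 1.60 and 1.96, and the helicase gene Ddx60 on days 2 and 5 at 1.26 and 1.39. The month 10 medians of Oasl2 were low, at 3.35 normalized counts after saline and 11.3 after NDMA. In WT livers Oasl1 was the sole call, on day 1 at 1.02, which is 1 of 9 beside 5.01% of all genes.

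Of 12, 12, 11, 13 and 13 other nucleases and nucleic acid enzymes tested, 0, 3, 2, 1 and 1 were called higher in Mgmt-/- livers, beside 9.06%, 12.4%, 11.1%, 7.27% and 4.75% of all genes, with medians between -0.06 and 0.06. Pld4 and Pld3, endolysosomal exonucleases, were both called on days 2 and 5, at 0.99 and 1.01 and at 1.08 and 0.85. Pld3 was also called in week 10 at 0.78 and Pld4 in month 10 at 1.07, and Exo1, an exonuclease of mismatch repair, was called on day 2 at 1.15. The Exo1 medians there were low, at 4.30 normalized counts after saline and 10.5 after NDMA. Dnase1l3, an extracellular DNase, was called lower on day 1 at -0.73 (named after its value was seen). Of the STING and helicase regulators, 2 of 13, 1 of 13, 2 of 12, 0 of 12 and 0 of 13 were called higher, to be read beside the same shares of all genes, with medians between -0.03 and 0.11. Nmi was called on days 1, 2 and 5 at 0.65, 0.71 and 0.73 and its partner Ifi35 on days 1 and 5 at 0.80 and 0.67, while Rnf125, a ubiquitin ligase that marks RIG-I for degradation, was called lower on days 1 and 2, at -0.67 on day 2. In WT livers 1 of 11 of these nucleases and 1 of 13 of these regulators were called higher on day 1, and 0 and 1 of 11 each on day 2, beside 5.01% and 3.33% of all genes, while Rnf125 was called lower on day 1 at -0.79.

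Over the 10 comparisons, the non-members whose log2 fold changes were most like the mean of the 8 members tested throughout were Serpina3g (Pearson r 0.98), Icam1 (0.97), Ifit1 (0.97), Mup20 (0.96) and Ifi47 (0.96), out of 7294 genes tested in all 10. These values describe 10 points from 2 genotypes that share depth and batch structure, and no test was made of them. Ifit1, an interferon-induced gene that binds foreign RNA, had log2 fold changes of 1.40, 1.94, 1.85, 0.81 and 0.71 in Mgmt-/- livers from day 1 to month 10 and 1.31, 0.76, 0.56, 0.16 and 0.29 in WT livers. Among the members, Zbp1 and Samhd1 had the most similar profiles (r 0.90) and Ddx58 and Ifih1 the least similar (r -0.16).

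Immune cell markers were measured beside these genes. In whole liver, a change in the number of cells of a type and a change in RNA per cell cannot be told apart. All 4 T cell markers tested (Cd2, Cd3d, Cd3g and Lck, of 8 listed and 7 in the data) were called higher on days 2 and 5 in Mgmt-/- livers, as were both NK cell markers tested, Gzma and Nkg7, of 7 listed, where 12.4% and 11.1% of all genes were called higher. The filter used the mean over saline and NDMA libraries together, so a marker low after saline could be tested through its NDMA values alone. These shares of markers called therefore depend on the filter, and the sums below use every listed marker in the data. The summed T cell markers ran from 21.6 to 35.5 normalized counts (median 25.7) in saline and from 74.4 to 242 (median 129) in NDMA-exposed Mgmt-/- livers on day 2, and from 20.5 to 30.6 (median 27.1) and 108 to 208 (median 164) on day 5. The summed NK cell markers ran from 22.2 to 46.6 (median 27.0) and 121 to 277 (median 224) on day 2, with Gzma the most abundant. Neither the T cell nor the NK cell sums overlapped between groups on these days. In WT livers the T cell sums were 21.8 to 46.4 (median 25.6) and 40.5 to 73.9 (median 58.1) on day 2, with 1 of 3 markers called beside 3.33% of all genes. In WT livers of week 10 they were 8.45 to 20.0 and 8.81 to 22.7, with none called.

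Of 8 macrophage and Kupffer cell markers, 2, 5, 4, 3 and 1 were called higher from day 1 to month 10 in Mgmt-/- livers, beside 9.06%, 12.4%, 11.1%, 7.27% and 4.75% of all genes, and 3 were called lower on day 1, beside 8.64%. On day 2 their sum was 579 to 1108 normalized counts (median 758) after saline and 1071 to 2441 (median 1247) after NDMA, and Cd5l was the most abundant. Cd5l, Marco, Cd68 and Timd4 were called on day 2 at 1.47, 1.77, 1.41 and 0.88, as was Adgre1, while Clec4f, which marks resident Kupffer cells, was at -0.54 and was not called. Of 7 monocyte and neutrophil markers tested on day 2 (8 listed), Ccr2, Ly6c2 and Plac8 were called higher at 3.43, 2.66 and 2.24, and S100a9 was called lower at -1.33. No dendritic cell marker passed the filter, and none of the defining markers of these 5 lists was at 0 in every library of a Mgmt-/- comparison. Hepatocyte markers were called lower for 3 of 5 genes on days 1 and 2 and for 1 of 5 on day 5 in Mgmt-/- livers. Erythroid markers were called lower for 5, 3 and 4 of 5, where 8.64%, 7.5% and 6.71% of all genes were called lower. The part of these cell types in the changes of the sensor genes was not tested.

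**Figure D4:**
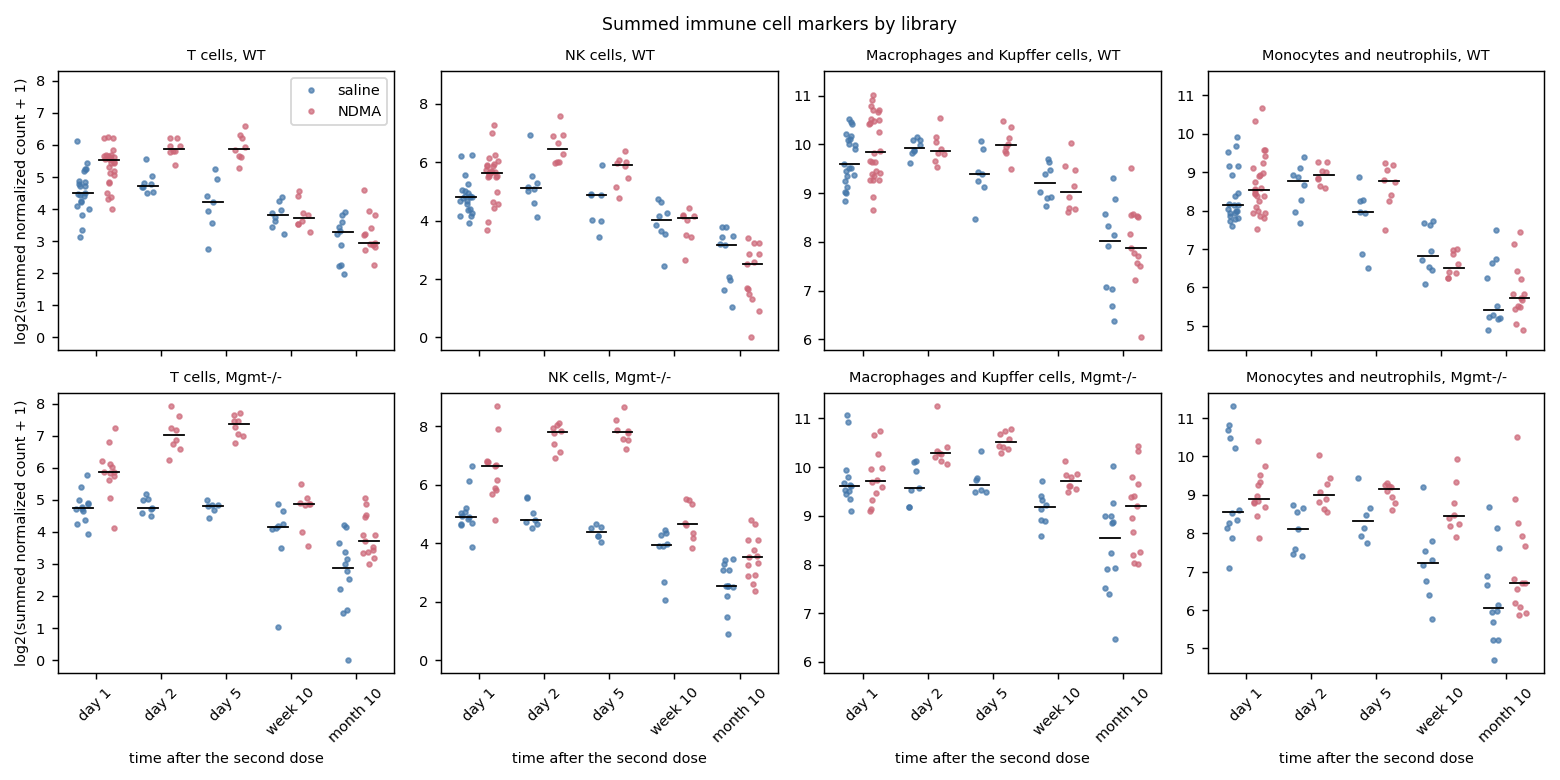
Summed normalized counts of 4 immune marker lists by library (y axis, log2(sum + 1)) at 5 times (x axis) after saline (blue) or NDMA (red), in WT (top) and Mgmt-/- livers (bottom), with bars at the medians. Values cannot be read across the genotypes. In Mgmt-/- livers the T cell and NK cell sums of the groups did not overlap on days 2 and 5.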

How the data were processed

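Whole livers were profiled by 3′ digital gene expression. Reads were aligned by the authors with STAR (GRCm38/mm10) and counted with ESAT, and the deposited values are a signal, gene counts divided by DESeq2 size factors for each genotype separately. Versions, annotation, strand use and collapse of molecular identifiers are not given in the sources used here. Whole reads were recovered for 209 of 213 libraries (100% of values whole within 0.1 reads) and served edgeR and DESeq2. The other 4, whose size factors lay too near 1, were left out of those tests only.

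NDMA was compared with saline within each genotype and time by limma 3.58.1 (trend, robust) on log2(value + 1). The terms were treatment, sex and any batch the samples could estimate, and genes needed a mean of 5 or more over the samples compared. Genotype terms came from edgeR 4.0.16 (mean reads of 5 or more), and DESeq2 1.42.0 served as an alternative, under R 4.3.3. Figures and summaries were made under Python 3.11.15 (numpy 2.4.6, pandas 2.3.3, matplotlib 3.10.9). P-values are two-sided and each mouse gave 1 library. The tests were tested on simulated data. The members and lists were chosen with earlier results of these data known. The genes named per pathway list are the 3 with the largest change among those called in the most Mgmt-/- comparisons, and the most similar genes are the 5 of highest r. Alternatives were pseudocounts of 0.5 and 5, filters (none, or a mean of 20), no covariates, equal totals, edgeR, DESeq2, adjusted p alone, libraries left out, all saline libraries kept and 1 batch of day 1. Leaving out D209074 or D209090 was added after the data were seen.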

Additional observations from a re-analysis of the deposited data

Results flagged for a closer look

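Values of 9 members were checked in groups of 4 to 10 livers for a library set apart from the rest of its group by Dixon's criterion. Of 117 combinations of a member and a group, 15 held such a library. In WT livers these were Tmem173 at 17.2 (NDMA day 5, D202013) and 20.5 (NDMA week 10, D215022), Zbp1 at 178 (saline day 2, D215004) and 88.7 (saline week 10, D215017), Dhx58 at 15.2 (saline week 10, D215019), Samhd1 at 54.1 (saline day 2, D215004) and Trex1 at 52.6 (NDMA day 2, D215006), 65.6 (NDMA day 5, D215014) and 34.7 (saline day 2, D202002). In Mgmt-/- livers they were Ddx58 at 49.4 (NDMA week 10, D209031) and 66.2 (saline day 2, D389006), Ifih1 at 78.8 (NDMA day 2, D389089) and 150 (saline week 10, D209001), Eif2ak2 at 87.5 (NDMA day 2, D389089) and Adar at 43.6 (NDMA day 5, D389066). All were the highest of their groups. The criterion is set so that chance gives about 5% for normally distributed values, but it was applied to normalized counts that were not log-transformed. The same libraries also served every member. The 15 of 117 can therefore not be weighed against 5%. D215006, D215014 and D215022 had 150038, 202626 and 270673 reads, and D215004 had 392164, and the part of depth in their values was not tested.

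A difference of the NDMA effect between genotypes passed its test for Zbp1 in week 10 (1.57 larger in Mgmt-/- livers on the log2 scale) and Eif2ak2 in month 10 (1.21 larger). A difference between times passed for Zbp1 in WT livers (2.22 larger on day 2 than in week 10) and for Samhd1 in Mgmt-/- livers (1.35 larger on day 2 than in week 10 and 1.15 larger than in month 10).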

How the results depend on the processing

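No paired analysis was possible because the labels give each mouse its own number and no pairing between groups. Over all alternatives no called member changed direction, and no member was called lower. Batch 200803Eng by itself was not among the alternatives. Within it the day 1 difference of Tmem173, called in both genotypes, was -0.31 in Mgmt-/- and -0.26 in WT livers. With edgeR or DESeq2, 5 members in place of 3 were called higher in Mgmt-/- livers of month 10, Ddx58 and Samhd1 being added. Under the filter at 20, the count was 3 and not 5 on Mgmt-/- day 1 and 2 and not 4 on WT day 1, since fewer genes were tested. A pseudocount of 5 gave 2 in place of 4 on WT day 1 (Tmem173 and Dhx58 lost), and batch 191212Eng alone gave 7. With no covariates, 3 in place of 5 were called on Mgmt-/- day 1 and 1 in place of 2 on WT day 5 (Samhd1 lost). With libraries scaled to equal totals, 7 in place of 5 members were called on Mgmt-/- day 1. Of all genes, 1635 were then called higher and 512 lower on Mgmt-/- day 1, in place of 911 and 869. These numbers were 1681 and 413 on day 2 (main 1170 and 710) and 1162 and 177 in week 10 (main 704 and 376). In month 10 they were 434 and 216 (main 478 and 301). Leaving out each replicate in turn gave 5 to 8 on Mgmt-/- day 2 (5 without saline D389041, main 8), 6 to 8 on Mgmt-/- day 5 (main 7), 1 to 2 on WT day 5 (1 without NDMA D202013 or saline D202009) and no change from 2 on WT day 2, 1 on Mgmt-/- week 10 and 0 on WT week 10. Without D209074 the WT day 1 count was 4, and without D209090 the Mgmt-/- day 1 count was 6. The number of all genes called higher moved as well. On WT day 5 it was 192 in the main design, 474 without D215014 and 79 without D202009. On WT day 2 it was 285 in the main design, 461 without D215006 and 211 without D215002. With no sex or batch terms, 0 members passed the genotype term in month 10 and 0 passed the time contrasts of Mgmt-/- livers (each 1 in the design used). The cause of these differences was not tested. Zbp1 kept all its calls in Mgmt-/- livers under every alternative run, as did Samhd1 on days 1, 2 and 5 there. Libraries were not left out in turn in month 10, where only WT material under 300000 reads was left out. On day 1 the only single libraries left out were D209074 and D209090. Cgas, Tmem173 and the interferon genes had few reads, which limits what can be said of them, and the part of depth in this was not tested.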
